A study of Mus musculus with 24 samples.

Results

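Foxa2, Foxa1, Sox9, Cxcl15 and Ttr, genes that regulate the uterine glands or are expressed by them, were followed across 24 bulk RNA-seq libraries of mouse uterus. They were taken by symbol from the deposited gene table, in which all 5 were found among 22943 genes. Foxa2, Cxcl15 and Ttr were lower in uteri of Ctcf knockout mice than in controls, after vehicle and after progesterone. Ttr was also about 3 times as high after progesterone as after vehicle in controls, and knockouts had 0 to 14 Ttr reads per library with either treatment. Sox9 did not pass the test in any comparison, and Foxa1 gave 0 to 5 reads per library.

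The mice were 21-day-old C57bl/6 females. Knockouts were PgreCre+;Ctcf-f/f (cKO), in which the progesterone receptor gene drives the Cre recombinase, and controls were littermates with Ctcf-f/f and no Cre. CTCF binds DNA and anchors the loops of chromatin. Both genotypes carried the floxed Ctcf allele, and only the knockouts carried the Cre, so the deletion and the Cre allele cannot be told apart in these groups. The Cre acts wherever the progesterone receptor gene has been active, which in the uterus includes epithelium, stroma and muscle. Mice received 0.5 mg progesterone in 0.05 ml sesame oil under the skin, or the oil alone, and were treated for 6 h. There were 8 control and 8 knockout libraries after vehicle, and 4 of each after progesterone. The labels place 16 libraries in the batch NOVA0380, with 4 of each group, here called the mixed batch. The other 8 are in NOVA0236, with 4 control and 4 knockout vehicle libraries, here called the vehicle-only batch. Whether every library stands for its own animal is not stated, and p-values therefore measure only the spread among libraries, which may be technical.

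Uterine glands form after birth, when the epithelium lining the uterus buds into the stroma below it. Wnt signalling guides this budding, and progesterone given early in life can block it. FOXA2 is a forkhead transcription factor found in the glandular epithelium of the mouse uterus and needed for glands to form. Its relative FOXA1 opens chromatin for other factors in several epithelia. SOX9 is a transcription factor of progenitor cells and is found in glandular epithelium. CXCL15, also called lungkine, is a chemokine of the lung and of uterine glands. TTR, transthyretin, carries thyroxine and, with retinol-binding protein, retinol, and is made mainly by liver and choroid plexus.

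Foxa2 lies on the minus strand of chromosome 2 at 148042877 to 148046969 (GRCm38), and Foxa1 on the minus strand of chromosome 12 at 57540628 to 57546916. Sox9 lies on the plus strand of chromosome 11 at 112782224 to 112787760, and Cxcl15 on the plus strand of chromosome 5 at 90794534 to 90803067. The stretches before the start sites of Foxa2 and Cxcl15 are shown because in every knockout library both genes were below all controls of the same treatment. Of all tested genes, 8.43% did not overlap between genotypes after vehicle and 21.5% after progesterone, in either direction. Each stretch holds the 250 bases upstream, 5′ to 3′ on the gene's own strand, from RefSeq promoters of GRCm38.p6. For Foxa2 the most upstream of 3 starts was taken, chr2:148046970-148047219 on the minus strand. For Cxcl15 the region is chr5:90794284-90794533 on the plus strand. Capitals mark the TATA box letters TATAAA.
Foxa2 promoter: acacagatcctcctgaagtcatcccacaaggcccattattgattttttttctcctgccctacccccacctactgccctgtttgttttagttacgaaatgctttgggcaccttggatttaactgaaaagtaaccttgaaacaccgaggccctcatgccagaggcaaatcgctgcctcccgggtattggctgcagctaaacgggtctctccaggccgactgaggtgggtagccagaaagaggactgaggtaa
Cxcl15 promoter: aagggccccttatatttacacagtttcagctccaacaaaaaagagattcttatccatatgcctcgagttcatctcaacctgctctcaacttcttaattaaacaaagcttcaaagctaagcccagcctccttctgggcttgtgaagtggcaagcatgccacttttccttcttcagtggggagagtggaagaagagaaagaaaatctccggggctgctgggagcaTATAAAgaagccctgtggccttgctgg
The forkhead letters TGTTTAC and TGTTTGC, the SOX letters AACAAT and the progesterone response palindrome, GNACA and TGTNC with NNN between them (N is any base), were searched on both strands. None of them was found in these 250 bases of Foxa2 or of Cxcl15. Among 32851 promoter windows of the same length, 3.17% held TGTTTAC, 4.3% held TGTTTGC, 9.42% held AACAAT and 0.387% held the palindrome. The Cxcl15 window held TATAAA at positions -27 to -22 from the start site, as letters that 12.4% of all windows held on either strand. The GC content was 50.8% in the Foxa2 window and 46.4% in the Cxcl15 window. Windows were taken for 3 of the 5 genes, namely Foxa2, Cxcl15 and Foxa1, and those of the other genes were not examined. The single Foxa1 window held GTAAACA, the reverse strand form of the first forkhead letters, at -141 to -135.

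Levels are in RPKM, a read count scaled by gene length and by depth, as deposited after the authors' batch correction. That correction added 1 constant per gene to every mixed-batch library and took it away from every vehicle-only library. In 3455 of 3455 genes with a shared lowest value in both batches, these lowest values were equal with opposite sign. For Foxa2, Cxcl15, Ttr and Foxa1 the constant was found (0.338, -0.0284, 0.0747 and 0.000239 RPKM) and taken back out, which gave uncorrected RPKM and whole reads. For Sox9 it was not found, and only deposited values are given. Estimated depth was 29900000 to 101000000 reads per library, with medians of 72700000 reads (mixed) and 49800000 reads (vehicle-only). Ctcf itself was 25.9 ± 2.36 RPKM (SD, n = 8) in control and 11.5 ± 1.11 (n = 8) in knockout vehicle libraries, and 26.0 ± 1.05 and 9.95 ± 0.982 (n = 4 each) after progesterone. Pgr, the gene that carries the Cre, was 39.5 ± 4.18 and 23.2 ± 3.84 RPKM after vehicle, and 10.99 ± 3.29 and 13.4 ± 3.60 after progesterone.

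Genotype was the first comparison, and it asked how the gland genes stood when Ctcf was deleted. The tests were limma fits to log2(RPKM + 0.5) of 14284 genes that reached 1 RPKM in 4 or more libraries, with p-values adjusted by Benjamini-Hochberg over all of them and called under 0.05. Of the 5 gland genes 4 were tested, and Foxa1 was too low. After vehicle 3 were lower in knockouts and 0 higher, beside 11.5% of all tested genes that were lower and 24.6% that changed in either direction. After progesterone again 3 were lower and 0 higher, beside 7.06% and 19.4% of all genes. The median log2 fold change of the 4 tested was -1.74 after vehicle and -1.81 after progesterone, against -0.01 and 0.03 over all genes. Foxa2, Cxcl15 and Ttr passed the filter of 4 libraries at 1 RPKM only through control libraries, since 3 knockout libraries reached 1 RPKM for Foxa2, 1 for Cxcl15 and 0 for Ttr, so these counts describe the genes and support nothing further.

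**Figure D1:**
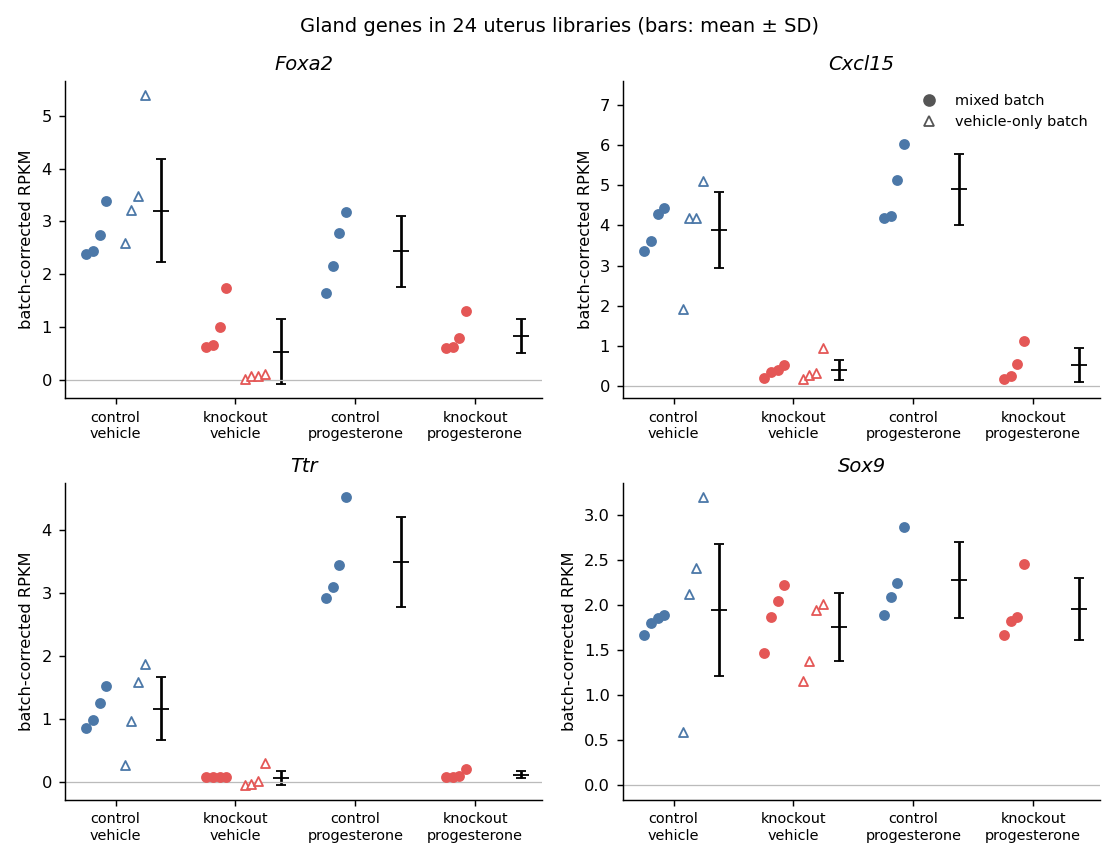
Batch-corrected RPKM of Foxa2, Cxcl15, Ttr and Sox9 in each of 24 libraries by group (controls blue, knockouts red, circles the mixed and triangles the vehicle-only batch), with mean and SD as black bars. Within each treatment all knockout libraries lie below all control libraries for Foxa2 and Cxcl15, Ttr is highest in the progesterone-treated controls at 2.93 to 4.53 RPKM, and the Sox9 groups overlap.

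Foxa2, the gland transcription factor, was 2.38 to 5.39 RPKM in the 8 control vehicle libraries, with a median of 2.98. In the 8 knockout vehicle libraries it was 0.00113 to 1.74 RPKM, with a median of 0.364. The genotypes did not overlap, as in 8.43% of all tested genes. The group means were 3.20 ± 0.982 and 0.532 ± 0.609 RPKM (SD, n = 8 each). The log2 fold change in knockouts was -2.01 ± 0.24 (SE, limma adjusted p = 1.04e-06). An exact permutation of genotypes within batches gave the smallest of its possible p-values, 0.000408 (two-sided, 4900 regroupings). The deposited knockout values fell apart by batch. Knockouts of the vehicle-only batch were at 0.00113, 0.0642, 0.0682 and 0.113 RPKM, and those of the mixed batch at 0.615, 0.647, 1.00 and 1.74. With the constant taken back out they were 0.339 to 0.451 and 0.278 to 1.41 RPKM, so the lowest knockout levels of the batches were close.

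Foxa2 reads were then compared within each batch. In the mixed batch 440 Foxa2 reads in knockouts stood against 1991 in controls, and the mean uncorrected RPKM in knockouts was 27.7% of that in controls. Knockout vehicle replicate 12 gave 254 of those 440 reads. It was at 1.41 RPKM uncorrected, and the other mixed-batch vehicle knockouts were at 0.278 to 0.666. In the vehicle-only batch 166 reads stood against 1920, and the knockout mean was 9.95% of the control mean. The deposited values gave 36.7% and 1.68% for the same libraries, so the batch constant widened the gap between batches. The difference in RPKM, which the constant does not touch, was -1.73 ± 0.35 (SE) in the mixed batch and -3.61 ± 0.60 in the other. With the constants removed the fit gave -1.85 ± 0.20 (limma adjusted p = 3.35e-07).

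**Figure D2:**
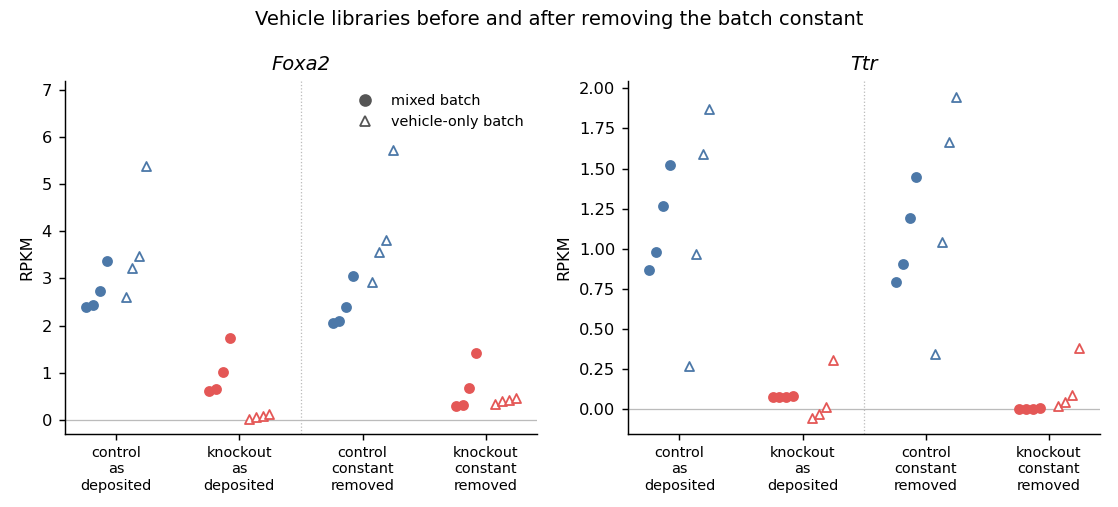
RPKM of Foxa2 and Ttr in the 16 vehicle libraries, as deposited and after the batch constant was removed, with circles for the mixed and triangles for the vehicle-only batch. The vehicle-only Foxa2 knockouts move from 0.00113 to 0.113 RPKM up to 0.339 to 0.451, beside the mixed-batch knockouts, and 3 of the mixed-batch Ttr knockouts move to 0.

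After progesterone Foxa2 was 3.17, 1.65, 2.77 and 2.15 RPKM in the 4 controls, and 0.602, 0.779, 0.626 and 1.30 in the 4 knockouts. The genotypes again did not overlap, as in 21.5% of tested genes. The means were 2.44 ± 0.672 and 0.827 ± 0.326 RPKM (SD, n = 4 each), and the knockout mean was 23.3% of the control mean in uncorrected RPKM. The log2 fold change was -1.15 ± 0.34 (SE, limma adjusted p = 0.019), and the exact permutation p was 0.0286, the smallest that 4 against 4 allows. The fit without control replicate 1 gave -1.03 (limma adjusted p = 0.0546) and that without knockout replicate 4 gave -1.07 (adjusted p = 0.0505). With a pseudocount of 0.1 it was -1.47 (adjusted p = 0.065), and with the constant removed -1.41 ± 0.29 (adjusted p = 0.00116).

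The highest Foxa2 value among knockouts came from vehicle replicate 12, at 1.74 RPKM. In that library Ovgp1, an oviduct gene, was at 191 RPKM. The next, progesterone replicate 8 at 1.30 RPKM, had Krt5, a keratin of squamous epithelium, at 14.8 RPKM, and vehicle replicate 9 had Krt5 at 50.5 RPKM. Among controls Ovgp1 was highest in progesterone replicate 7 at 380 RPKM and in vehicle replicate 3 at 146 RPKM. Without these 5 libraries the Foxa2 log2 fold change was -2.35 ± 0.21 after vehicle (limma adjusted p = 5.27e-07) and -1.24 ± 0.31 after progesterone (limma adjusted p = 0.0129). Libraries that were kept held such values too, with deposited Ovgp1 at 60.2 RPKM in control vehicle replicate 1a. Knockout vehicle replicate 5 had Ovgp1 at 44.1 and Krt5 at 10.1 RPKM, so leaving out the 5 did not remove all such deposited values. Both replicates are of the vehicle-only batch, whose values of these markers were raised by the batch constant. Mixed-batch values were lowered by it, down to -13.3 RPKM for Ovgp1 and -4.56 for Krt5.

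Cxcl15, the gland chemokine, was 1.93 to 5.11 RPKM in the 8 control vehicle libraries, with a median of 4.19, and 0.186 to 0.952 in the 8 knockouts, with a median of 0.344. Every knockout library lay below every control library, and 8.43% of all tested genes did not overlap here in either direction. The means were 3.89 ± 0.950 and 0.402 ± 0.246 RPKM (SD, n = 8 each), and the log2 fold change was -2.29 ± 0.19 (SE, limma adjusted p = 5.12e-09). The exact permutation p was 0.000408, the smallest possible. By reads relative to depth the knockouts had 9.73% of the control level in the mixed batch (231 against 2932 reads). The vehicle-only batch gave 9.72% (143 against 1669 reads). Both batches thus gave nearly the same share, and whether Foxa2 differed from Cxcl15 in this was not tested. Without the 5 libraries with oviduct or squamous markers the Cxcl15 log2 fold change was -2.24 ± 0.20 (limma adjusted p = 3.71e-07).

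After progesterone Cxcl15 was 4.23, 4.19, 5.14 and 6.04 RPKM in the controls and 0.168, 0.547, 0.243 and 1.12 in the knockouts. Knockout replicate 8, the library with Krt5 reads, was the highest of its group, and no knockout reached a control. Genotypes did not overlap in 21.5% of all tested genes here, in either direction. The means were 4.90 ± 0.877 and 0.518 ± 0.431 RPKM (SD, n = 4 each), and the knockout mean was 11.1% of the control mean in uncorrected RPKM. The log2 fold change was -2.48 ± 0.27 (SE, limma adjusted p = 5.46e-07), and -2.71 ± 0.29 without the 5 libraries (limma adjusted p = 7.17e-06). Other chemokines of its kind and their receptors, Cxcl1, Cxcl2, Cxcl3, Cxcl5, Cxcr1 and Cxcr2, were too low to test, 6 of 6. The highest group mean among them was 0.380 RPKM, for Cxcl1 in vehicle-treated knockouts.

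Ttr, the thyroxine carrier, was nearer to 0 in knockouts than Foxa2, Cxcl15 or Sox9. It was 0.272 to 1.87 RPKM in the 8 control vehicle libraries, with a median of 1.12, and -0.0510 to 0.309 in the knockouts, with a median of 0.0747. The values below 0 come from the batch constant. The genotypes overlapped by 1 library on each side, control replicate 1a at 0.272 and knockout replicate 5 at 0.309 RPKM, both of the vehicle-only batch. The means were 1.17 ± 0.504 and 0.0691 ± 0.110 RPKM (SD, n = 8 each). The log2 fold change was -1.47 ± 0.17 (SE, limma adjusted p = 8.08e-07), and the exact permutation p was 0.000816.

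Reads showed how few Ttr transcripts the knockouts gave. In the mixed batch the 4 vehicle knockouts had 0, 0, 0 and 1 reads, and the 4 controls had 97, 138, 77 and 156. That is 0.264% of the control rate relative to depth (95% interval 0.00667% to 1.48%, exact, covering counting error only). In the vehicle-only batch the knockouts had 3, 14, 6 and 1 reads and the controls 17, 70, 108 and 116, or 8.76% of the control rate (5.53% to 13.3%). Replicate 5 gave 14 of those 24 knockout reads. After progesterone the knockouts had 3, 1, 1 and 8 reads and the controls 391, 223, 242 and 260, or 1.13% (0.600% to 1.94%). The deposited RPKM after progesterone was 4.53, 2.93, 3.10 and 3.45 in controls and 0.105, 0.0858, 0.0871 and 0.203 in knockouts, with no overlap. Genotypes did not overlap in 21.5% of all tested genes here. The Ttr log2 fold change was -2.68 ± 0.24 (SE, limma adjusted p = 4.55e-08). The pseudocount of 0.5 and the constant of 0.0747 RPKM both make this fold smaller than the reads do. Without the 5 libraries with oviduct or squamous markers it was -1.48 ± 0.21 after vehicle (limma adjusted p = 6.95e-05) and -2.79 ± 0.31 after progesterone (limma adjusted p = 1.12e-05).

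Sox9, the progenitor cell factor, did not pass the test between genotypes. It was 0.586 to 3.19 RPKM in control and 1.16 to 2.22 in knockout vehicle libraries, with medians of 1.88 and 1.90. Control replicates 1a and 12, both of the vehicle-only batch, were the lowest and the highest of all, and the groups overlapped throughout. The means were 1.94 ± 0.733 and 1.76 ± 0.377 RPKM (SD, n = 8 each), and the log2 fold change was -0.06 ± 0.17 (SE, limma adjusted p = 0.845). After progesterone the controls were at 2.25, 2.09, 2.86 and 1.89 RPKM and the knockouts at 1.82, 2.45, 1.87 and 1.66. The means were 2.27 ± 0.420 and 1.95 ± 0.345 RPKM (SD, n = 4 each), and the log2 fold change was -0.18 ± 0.24 (SE, limma adjusted p = 0.661). The unknown batch constant of Sox9 can alter its ratios but not its differences within a batch, which were 0.0935 ± 0.168 RPKM in the mixed and -0.456 ± 0.586 in the other batch (SE, knockout minus control after vehicle).

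Foxa1, the forkhead relative, was at 0 reads in 19 of 24 libraries. Of the rest, control vehicle replicate 4, knockout vehicle replicate 11b and control progesterone replicate 2 had 1 read each. Knockout vehicle replicate 4 had 2 reads and knockout progesterone replicate 6 had 5. These counts cannot show a difference between groups. Foxa3, the other member of the family, was below the filter too, with group means of 0.0178 to 0.0454 RPKM. Sox8 and Sox10, relatives of Sox9, were tested and not called in any comparison, and Sox10 was 0.908 ± 0.307 in control and 0.662 ± 0.243 RPKM in knockout vehicle libraries (SD, n = 8 each; limma adjusted p = 0.2).

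**Figure D3:**
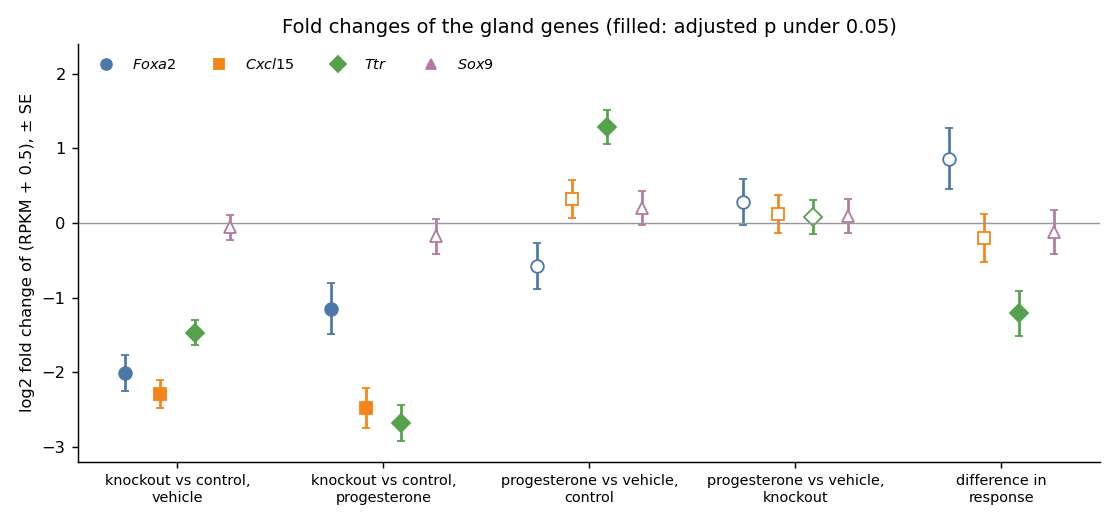
Log2 fold changes of RPKM + 0.5 with SE for Foxa2, Cxcl15, Ttr and Sox9 in the 4 comparisons and for the difference in response, filled where the limma adjusted p is under 0.05. Foxa2, Cxcl15 and Ttr lie between -2.68 and -1.15 in both genotype comparisons, and in the progesterone comparisons Ttr in controls is the filled point, at 1.29.

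Progesterone against vehicle was the second comparison, made in each genotype with the batch as a term. In controls 1 of the 4 tested genes rose and 0 fell, beside 7.84% and 15.1% of all tested genes and 23% in either direction. That gene was Ttr. Its 4 progesterone libraries, at 2.93 to 4.53 RPKM, lay above all 8 vehicle libraries, at 0.272 to 1.87, and 14% of tested genes had groups that did not overlap here. The log2 fold change was 1.29 ± 0.23 (SE, limma adjusted p = 0.00026). Within the mixed batch the mean rose by 2.35 ± 0.39 RPKM (SE), from 1.08 to 3.43 uncorrected, a ratio of 3.16, and the exact permutation p was 0.0286, the smallest possible. Without the 5 libraries the log2 fold change was 1.30 ± 0.29 (limma adjusted p = 0.00602). There were 468 Ttr reads after vehicle and 1116 after progesterone in that batch, or 319.7% of the vehicle level relative to depth (95% interval 287% to 357%, counting error only).

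The other genes did not pass in controls. Foxa2 was 3.20 ± 0.982 RPKM after vehicle (n = 8) and 2.44 ± 0.672 after progesterone (SD, n = 4), with a log2 fold change of -0.58 ± 0.31 (limma adjusted p = 0.192). The vehicle controls of the mixed batch alone were at 2.73 ± 0.460 RPKM (SD, n = 4), and the difference from them was -0.297 ± 0.407 RPKM (SE). Cxcl15 was 3.89 ± 0.950 and 4.90 ± 0.877 RPKM, with a log2 fold change of 0.32 ± 0.25 (limma adjusted p = 0.389). Sox9 was 1.94 ± 0.733 and 2.27 ± 0.420 RPKM, with a log2 fold change of 0.20 ± 0.23 (limma adjusted p = 0.572). For Sox9 within the mixed batch the exact permutation p was 0.0571, with 0.469 ± 0.215 RPKM (SE) more after progesterone, and the groups overlapped by 1 library on each side.

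In knockouts 0 of the 4 tested genes passed with limma, beside 8.67% of all genes in either direction, 4% higher and 4.66% lower. None had groups that did not overlap over all libraries, as 7.74% of all genes did. Foxa2 had a log2 fold change of 0.28, Cxcl15 of 0.12, Ttr of 0.08 and Sox9 of 0.09, and the lowest adjusted p among them was 0.661, for Foxa2. The lowest unadjusted p was 0.388, so 0 of them were under 0.05 without adjustment. Foxa2 went the other way in the mixed batch alone, at -0.15. Ttr in the mixed batch had 13 reads after progesterone and 1 after vehicle, a difference of 0.0428 ± 0.0280 RPKM (SE) with an exact permutation p of 0.0286. The vehicle-only knockouts, whose batch held no progesterone libraries, had 24 Ttr reads, more than the progesterone group in fewer total reads.

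The difference between the genotypes' responses was tested as an interaction. Ttr had -1.21 ± 0.30 (log2, SE, limma adjusted p = 0.0278), and it was the 1 gene of the 4 called, beside 2.49% of all genes, of which 1.03% were lower and 1.46% higher. Knockouts were near 0 Ttr reads with both treatments, so the pseudocount and the batch constant hold their log2 response near 0, and this value cannot compare the responses as ratios. By reads in the mixed batch the knockout ratio was 1369% (13 against 1 reads, 95% interval 206% to 58172%, counting error only). That interval includes the 319.7% of controls, so no difference between the ratios is shown. Knockout progesterone replicate 8, the library with Krt5 reads, gave 8 of the 13 reads. On the RPKM scale without a log the difference was -2.29 ± 0.36 (limma adjusted p = 0.000428), the rise in RPKM being smaller in knockouts. On the log scale the call was lost when control progesterone replicate 1 or 9, or knockout progesterone replicate 5 or 6, was left out (adjusted p from 0.0518 to 0.0701), and with a pseudocount of 0.1 (adjusted p = 0.281). Without the 5 libraries with oviduct or squamous markers it was -1.30 ± 0.38 (adjusted p = 0.117). Foxa2 had 0.86 ± 0.41 (adjusted p = 0.348), Cxcl15 -0.20 and Sox9 -0.12 (adjusted p = 0.863 and 0.921).

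The groups were ordered by mean deposited RPKM within the mixed batch, where all 4 groups had 4 libraries. For Foxa2 the order was control vehicle (2.73), control progesterone (2.44), knockout vehicle (1.00) and knockout progesterone (0.827), and the SD ranges overlapped within each genotype. With the vehicle-only libraries included, knockout vehicle was the lowest, at 0.532 RPKM. For Cxcl15 the order was control progesterone (4.90), control vehicle (3.92), knockout progesterone (0.518) and knockout vehicle (0.367), again with overlap within each genotype. Ttr had the same order as Cxcl15, with control progesterone clear of control vehicle. Sox9 ran from control progesterone (2.27) through knockout progesterone (1.95) and knockout vehicle (1.90) to control vehicle (1.80). No neighbours in the Sox9 order differed beyond their SD, and over both batches knockout vehicle was the lowest, at 1.76 RPKM.

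Over the 16 mixed-batch libraries the log2 values of Foxa2, Cxcl15 and Ttr went together, with Pearson r of 0.87 for Foxa2 and Cxcl15, 0.80 for Foxa2 and Ttr, and 0.92 for Cxcl15 and Ttr. All these libraries share the genotype difference, and with group means taken away the values were 0.30, 0.53 and 0.24. Sox9 had r of 0.13 to 0.35 with the others, and of -0.20 to 0.06 with group means taken away. The genes most like each were taken by the same r. Wnt11, a Wnt ligand, was the nearest to Foxa2 (r = 0.926, and 0.73 within groups). It was 8.14 and 2.05 RPKM in control and knockout vehicle libraries. Lamc3, a laminin chain, was nearest to Cxcl15 (0.967, and 0.30 within groups), and Syn2, a synapsin, to Ttr (0.990, and 0.54). Shroom3, an epithelial shape regulator, was nearest to Sox9 (0.874, and 0.88 within groups). Zfp764, Elapor1 and Rabggta followed for Foxa2, Slc35b2, Ggt6 and Mdp1 for Cxcl15, Acsl6, Acss1 and Gm41235 for Ttr, and Mboat1, Plxnb1 and Gramd1b for Sox9. Within groups these had r of 0.54 to 0.66 with Foxa2, 0.33 to 0.43 with Cxcl15 and 0.78 to 0.82 with Sox9. With Ttr the within-group r was -0.48 for Acsl6, -0.02 for Acss1 and 0.27 for Gm41235.

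Genes of gland formation did not share one direction. Of 12 such genes, all tested, 7 were lower and 2 higher in knockouts after vehicle, and 2 were lower and 4 higher after progesterone. Of all tested genes 11.5% were lower and 13.1% higher after vehicle, and 7.06% and 12.3% after progesterone. The list's median log2 fold change was -0.24 and 0.09, against -0.01 and 0.03 over all genes. Wnt4, a Wnt ligand, rose from 2.92 ± 2.21 to 8.01 ± 2.15 RPKM after vehicle (log2 1.45 ± 0.28, limma adjusted p = 0.000393) and was 1.59 ± 0.914 and 8.65 ± 4.03 after progesterone (limma adjusted p = 0.000416). Lgr5, a receptor that boosts Wnt signals, rose likewise, by 1.34 ± 0.25 (limma adjusted p = 0.000351) and 1.94 ± 0.36 (limma adjusted p = 0.000455). Lgr4, its relative, fell by 0.53 on the log2 scale after vehicle (limma adjusted p = 6.31e-05). Hoxa11, a homeobox gene of the uterus, was lower in both settings, at 57.3 and 38.5 RPKM after vehicle in controls and knockouts and 108 and 68.6 after progesterone. Wnt7a, the Wnt ligand of the lining epithelium, was higher in knockouts after progesterone (1.33 ± 0.24, limma adjusted p = 0.000384).

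With progesterone 2 of the 12 rose and 3 fell in controls, and 3 rose and 3 fell in knockouts. Of all tested genes 7.84% rose and 15.1% fell in controls, and 4% and 4.66% in knockouts. Wnt7a fell in controls from 10.8 ± 2.57 to 2.93 ± 0.759 RPKM (log2 -1.71 ± 0.23, limma adjusted p = 9.84e-06). Esr1, the oestrogen receptor, fell in both genotypes, by 0.74 and by 0.54 on the log2 scale. Hoxa11 rose in both, by 0.90 and 0.81. Wnt5a, a stromal Wnt ligand, fell in controls from 37.3 ± 1.73 to 22.3 ± 1.48 RPKM (log2 -0.73 ± 0.06). It fell less in knockouts, by 0.21 on the log2 scale (limma adjusted p = 0.0366). Of the 12 it was the 1 gene whose response differed between genotypes (0.51 ± 0.08, limma adjusted p = 0.000835), beside 2.49% of all tested genes. In knockouts against controls it was at -0.23 after vehicle and 0.28 after progesterone.

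**Figure D4:**
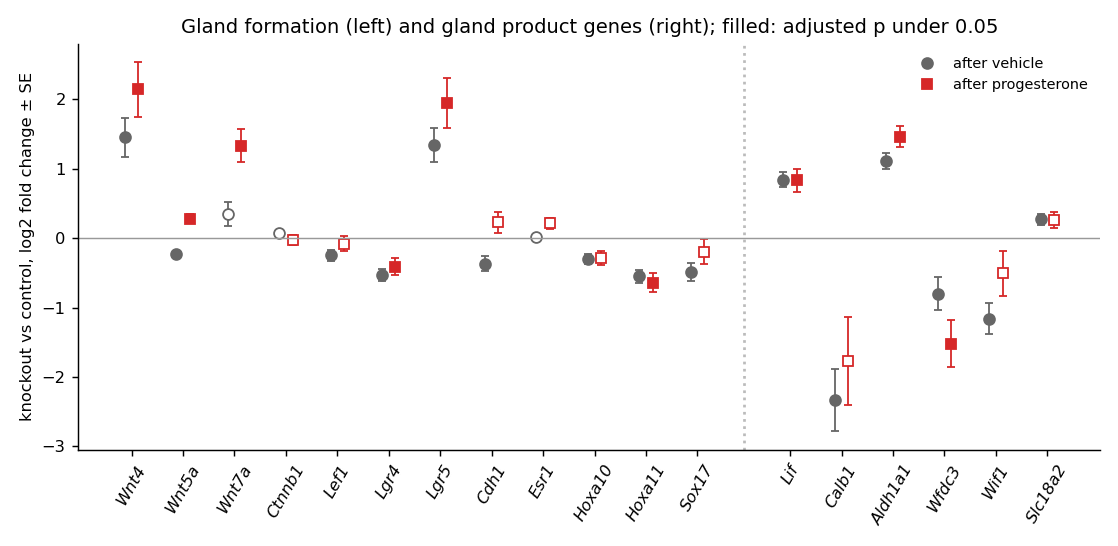
Log2 fold changes of knockouts against controls with SE for the 12 gland formation genes and the 6 tested gland product genes, after vehicle (circles) and after progesterone (squares), filled where the limma adjusted p is under 0.05. Wnt4, Lgr5, Lif and Aldh1a1 lie above 0 in both treatments, and Calb1 has the lowest value, at -2.33 after vehicle.

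Of 9 further genes known as gland or epithelial products, 6 were tested, and the serine protease genes Prss28 and Prss29 and the protease inhibitor gene Spink1 were too low. These untested genes had lower means in knockouts with both treatments. After vehicle Spink1 was 0.242 and 0.0230 RPKM in controls and knockouts, Prss28 0.386 and 0.0324, and Prss29 0.433 and 0.0414. With progesterone Spink1 was 1.29 and -0.000411, Prss28 0.346 and 0.0789, and Prss29 0.368 and 0.0225. Of the 6 tested, 3 were higher and 3 lower in knockouts after vehicle, and after progesterone 2 were higher and 1 lower, beside 13.1% higher and 11.5% lower, and 12.3% and 7.06%, of all tested genes. The median was -0.27 and -0.13 on the log2 scale. Lif and Slc18a2 reached 1 RPKM only in knockouts, and Wif1 only in vehicle controls. They passed the filter through the group where they were higher, so these counts describe the genes and support nothing further. Calb1, which encodes a calcium-binding protein, fell from 63.1 ± 20.3 to 13.3 ± 7.29 RPKM after vehicle (log2 -2.33 ± 0.45, limma adjusted p = 0.000516). Wif1, a secreted Wnt inhibitor, fell from 1.18 to 0.179 RPKM (limma adjusted p = 0.000431). Lif, the cytokine that glands release for implantation, was higher in knockouts, at 0.517 ± 0.120 and 1.33 ± 0.298 RPKM after vehicle (limma adjusted p = 7.23e-06). Aldh1a1, an enzyme that makes retinoic acid, rose from 12.3 ± 1.54 to 27.2 ± 2.41 RPKM (limma adjusted p = 4.1e-08). Wfdc3, a protein with a WAP domain, went up with progesterone in both genotypes, by 2.35 ± 0.32 in controls (limma adjusted p = 1.58e-05) and 1.62 ± 0.32 in knockouts (limma adjusted p = 0.00251). After progesterone it was lower in knockouts, at 5.44 ± 2.00 and 1.80 ± 1.23 RPKM (limma adjusted p = 0.00304). Rbp4, the retinol carrier that binds TTR, was 10.6 ± 6.56 and 7.49 ± 5.04 RPKM after vehicle and did not pass (limma adjusted p = 0.387).

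Markers of cell types were read beside these results, because in bulk tissue fewer gland cells and less RNA per gland cell cannot be told apart. Of 8 epithelial markers 5 were lower and 0 higher in knockouts after vehicle, with a median log2 fold change of -0.34, beside 11.5% lower and 13.1% higher among all tested genes. Their summed level was 325 to 463 RPKM in controls and 235 to 373 in knockouts. After progesterone 0 were lower and 1 higher, and the sums were 243 to 423 and 277 to 454 RPKM. The part of the epithelial markers in the genotype differences was not tested. Of 7 leukocyte markers 4 were tested, all 4 higher in knockouts after vehicle and 3 after progesterone, beside 13.1% and 12.3% of all tested genes. Their sums were 29.5 to 43.6 RPKM in control and 58.4 to 101 in knockout vehicle libraries. The part of the leukocyte shift in these results was not tested.

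Tissues that make these products elsewhere were low. Of 6 liver markers none passed the filter, and their sum was -0.305 to 2.94 RPKM in control and -0.0452 to 11.3 in knockout vehicle libraries. It was highest in knockout replicate 5, the knockout with the most Ttr reads. That library also had the highest sums among vehicle knockouts for adipose markers (293 RPKM) and cartilage markers (1.38 RPKM). The source of its Ttr reads was not tested. Lung epithelium markers, 4 genes, summed to at most 0.849 RPKM in any library. Choroid plexus markers, of which 1 of 4 was tested, summed to 1.06 to 2.29 RPKM in control vehicle and 2.65 to 6.30 in control progesterone libraries. The higher sum came from Clic6, at means of 0.949 and 3.80 RPKM, while Kl (0.0936 and 0.0650), Folr1 (0.504 and 0.475) and Kcnj13 (0.103 and 0.0721) were no higher after progesterone. Cartilage markers, where Sox9 is also active, summed to at most 1.38 RPKM. Stroma and smooth muscle markers, 6 and 5 genes, were high in every library, at sums of at least 898 and 859 RPKM, and each list had at most 1 gene called in a comparison. Of the oviduct, squamous epithelium and adipose lists 0 genes were called between genotypes with limma, and 1, the cilium gene Foxj1, had an unadjusted p under 0.05 after vehicle.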

How the data were processed

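Uterus RNA in 24 libraries was extracted with Trizol, cleaned with DNase and made into TruSeq libraries, per the labels' protocols. The submitters' processing notes list cutadapt 2.7, TopHat, Partek and mm10. The tools that counted reads and corrected batches, the annotation and the strand setting were not given in the sources used here. Gene-level RPKM after a batch correction were deposited by the authors, and 6.66% of the deposited values lie below 0.

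Values below 0 were set to 0, 0.5 was added and log2 taken. Genes that reached 1 RPKM in 4 or more libraries (14284) were fitted with limma 3.58.1 in R 4.3.3 with 4 groups and batch as terms, a mean-variance trend and robust variances (19 residual degrees of freedom), and p-values were adjusted by Benjamini-Hochberg. The design assumed plain RPKM. The fit was tested on simulated data. The batch constant and whole reads were sought on the grid of RPKM values with Python 3.11.15, which is an alternative added after the data were seen. Values of 86.1% of 2039 genes tried came out as whole reads in every library, within 0.03 reads. For Foxa2 11 of 11 libraries under 150 reads were within 0.02 of a whole read, and for Cxcl15 11 of 12. Intervals of read ratios cover counting error only. Exact permutation tests were two-sided, within batches.

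Named genes were the 5 members, Ctcf and Pgr, up to 4 called genes with the smallest adjusted p per list and comparison, and the 4 genes most alike to each member; a marker named beside a result was chosen after its value was seen. Members and lists were chosen with earlier results of these data known. The labels do not pair libraries by replicate number, and whether same-numbered libraries share a source was not settled. Pairs labelled 1a and 1b or 11a and 11b correlated no more closely over all tested genes than other libraries of their group, and all were kept. The Pearson r was 0.963 for 1a with 1b, beside 0.943 to 0.984 for other pairs. For 11a with 11b it was 0.974, beside 0.950 to 0.980. Such values cannot show whether a pair came from 1 animal.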

Additional observations from a re-analysis of the deposited data

Results flagged for a closer look

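In 8 of the 20 sets of values formed by the 5 genes and 4 groups, 1 library stood apart from the others of its group by Dixon's test, which flags about 1 in 20 groups by chance. The 4 sets of Foxa1 are among them and carry no weight, since nearly all other libraries had 0 reads and a single read is then enough to stand apart. Foxa2 was at 5.39 RPKM in control vehicle replicate 7. Cxcl15 was at 0.952 RPKM in knockout vehicle replicate 13. Ttr was at 0.309 RPKM in knockout vehicle replicate 5 and at 0.203 RPKM in knockout progesterone replicate 8. Foxa1 stood apart in all 4 groups through single libraries with 1 to 5 reads, at 0.00381 RPKM in control vehicle replicate 4, 0.0111 in knockout vehicle replicate 4, 0.00517 in control progesterone replicate 2 and 0.0241 in knockout progesterone replicate 6. The interaction test of the Ttr response to progesterone gave a log2 difference of -1.21 between genotypes. Knockouts had 0 to 14 Ttr reads, so the pseudocount and batch constant shape this value, and its call was lost with a pseudocount of 0.1, with a replicate block, without the 5 libraries with oviduct or squamous markers and without any of 4 single libraries.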

How the results depend on the processing

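The genotype differences of Cxcl15 and Ttr, the Foxa2 difference after vehicle and the Ttr rise in controls kept their direction and call under every alternative run. No member was tested at a filter of 5 RPKM. The Foxa2 difference after progesterone was -1.47 with a pseudocount of 0.1 and -0.75 with a replicate block (limma adjusted p = 0.065 and 0.379). The Ttr difference in response was -1.22 with a pseudocount of 0.1, -1.61 with a replicate block and -1.30 without the 5 libraries with oviduct or squamous markers (adjusted p = 0.281, 0.189 and 0.117), so that 0 members were called in each. Weights per library, whose estimation stopped short of its tolerance, gave Cxcl15 with progesterone in controls 0.45 (adjusted p = 0.0332), making 2 members called there. Signs turned only where nothing was called. Sox9 was at 0.05 in both genotype comparisons with weights, at 0.05 after vehicle in the mixed batch alone and at 0.03 for the difference in response without the 5 libraries. With progesterone in knockouts Foxa2 was at -0.15 in the mixed batch alone, Cxcl15 at -0.15 and Ttr at -0.0024 without the 5 libraries, and Ttr at -0.24 with the block.

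Called genes over the whole table moved more. After vehicle, genotype gave 2293 at the 5 RPKM filter, 6500 with weights and 1178 in the vehicle-only batch alone, against 3516. After progesterone it gave 7123 with weights and 822 with the block, against 2767. Progesterone in controls gave 6276 with weights and 2064 without the 5 libraries, against 3280. In knockouts it gave 5965 with weights, 162 with the block and 398 without the 5 libraries, against 1238. The difference in response gave 236 at the 5 RPKM filter, 4122 with weights, 26 with the block and 213 without the 5 libraries, against 355.

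Leaving out each library in turn gave 210 (without knockout progesterone replicate 5) to 716 (without control vehicle replicate 12) genes for the difference in response, and 0 to 1 members. It gave -1.30 to -1.03 for Foxa2 after progesterone and -1.30 to -1.05 for the Ttr difference. Sox9 ranged from -0.22 to 0.05 for genotype after vehicle, from -0.01 to 0.17 with progesterone in knockouts and from -0.22 to 0.05 for the difference, and Cxcl15 from -0.13 to 0.29 with progesterone in knockouts. The labels give no shared source for the replicate numbers. Of 11 same-numbered pairs 6 deviated together with a correlation over 0.1 (-0.26 to 0.64), and 2 of 18 libraries correlated best with their own number. These values do not decide whether same-numbered libraries were paired. Depth limits Foxa1, at 0 to 5 reads, and Ttr in knockouts, at 0 to 14.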
